A study of Mus musculus with 43 samples.

Results

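Small RNAs of mature sperm were compared with small RNAs of the fluid around them in the cauda epididymis, the last segment of the duct and the place where sperm are stored. All animals of this comparison were Rnase9-12 KO mice, which carry a CRISPR deletion of the whole Rnase9, Rnase10, Rnase11 and Rnase12 gene cluster, on the FVB background and at 8 to 12 weeks of age. The comparison used 7 of the 43 libraries of the series, namely 4 of KO cauda sperm and 3 of KO cauda fluid, chosen by their labels and joined by RNA name. Each library pooled the RNA of 3 mice. The fluid was the part left after sperm, cell debris and extracellular vesicles had been removed. All 7 libraries were made by OTTR-seq, which copies RNA ends by template jumping of a reverse transcriptase, from RNA whose 3′ phosphates had been removed. WT cauda sperm (4 libraries) and WT cauda fluid (3 libraries) of the same strain and age served to test whether the difference between sperm and fluid depended on the deletion. They also entered the fit to single RNAs, where they shared the filter, the scaling and the estimate of spread with the KO libraries. KO males are sterile, so the sperm were not those of fertile males. The tables listed 0 rows for the 4 deleted genes, so the genotype could not be checked here.

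Sperm lose most of their cytoplasm and stop transcription before they reach the epididymis, and they carry fragments of rRNAs and tRNAs. Epithelial cells of the duct secrete proteins and RNA into the lumen, and extracellular RNA of body fluids is known to be rich in tRNA fragments and Y RNA fragments. RNase A family proteins such as those of this cluster are secreted, and some members of the family cut tRNAs and Y RNAs outside cells. For recombinant proteins of this cluster, the authors detected no cutting of tRNAs in vitro.

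The Y RNAs Rny1 (mm10 chr6:47788069-47788180, minus strand, GENCODE M21) and Rny3 (chr6:47781624-47781725, plus strand) differed between sperm and fluid. Y RNAs are short noncoding RNAs that bind the Ro60 protein, and the sequences of both are shown because their fragments marked the fluid.

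Rny1: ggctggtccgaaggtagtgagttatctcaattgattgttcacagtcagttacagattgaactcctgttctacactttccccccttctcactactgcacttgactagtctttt

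Rny3: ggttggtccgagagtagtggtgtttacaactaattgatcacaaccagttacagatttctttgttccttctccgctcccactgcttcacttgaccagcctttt

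Among miRNAs, the following mature sequences (RefSeq, GRCm38.p6) belong to some of the precursors named below. These were leaders of a group, had small p-values or were members of the marker and family lists. Capitals mark the seed, bases 2 to 8, with which a miRNA pairs to its targets. The files count precursors, so the arm that gave the reads is not known.

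mmu-miR-125b-5p: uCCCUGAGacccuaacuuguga

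mmu-miR-125a-5p: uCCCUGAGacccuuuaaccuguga

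mmu-miR-99a-5p: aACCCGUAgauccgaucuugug

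mmu-miR-100-5p: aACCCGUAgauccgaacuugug

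mmu-miR-214-3p: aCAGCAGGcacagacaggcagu

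mmu-miR-199a-3p: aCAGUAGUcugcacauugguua

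mmu-miR-200a-3p: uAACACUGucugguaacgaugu

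mmu-miR-21a-5p: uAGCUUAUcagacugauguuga

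mmu-miR-34b-3p: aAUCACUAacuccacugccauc

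mmu-miR-34c-3p: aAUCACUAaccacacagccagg

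mmu-miR-451a: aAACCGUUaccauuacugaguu

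The first 2 share a seed, as do miR-99a with miR-100 and the printed arms of miR-34b with miR-34c.

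The deposited values were raw read counts on annotated RNAs, and shares of all counts below are shares of these. By the authors' account, a much larger part of sperm reads than of fluid reads mapped to no annotated feature. Such reads are not in the counts, so the shares cover a smaller part of the sperm reads. The KO sperm libraries held 44325673, 42764979, 62128314 and 3618739 counts, and the KO fluid libraries 11018838, 7867473 and 6533330. Sperm and fluid were counted in separate tables of 4323 and 3178 RNAs, of which 3091 were listed in both, and these held at least 99.7% of the counts of every KO library. Replicates differed by more than the sampling noise, with Pearson correlations across RNAs of log2 CPM (counts scaled to a common library total) of 0.962 to 0.995 within sperm and 0.940 to 0.966 within fluid. Because no library set holds both sperm and fluid, a difference between the 2 sets of preparations and a difference between the compartments cannot be told apart. A higher share of one RNA lowers the shares of all others, and fewer cells of a type and less RNA per cell cannot be told apart either.

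rRNA fragments (rsRNAs) dominated KO sperm and tRNA fragments (tRFs) dominated KO fluid. In the 4 sperm libraries tRFs made up 1.91%, 5.04%, 3.98% and 2.04% of all counts, and in the 3 fluid libraries 75.8%, 78.9% and 87.9%. Every fluid library thus lay far above every sperm library, and the mean share was 24.96-fold higher in fluid (80.8% ± 6.28, SD, n = 3) than in sperm (3.24% ± 1.53, n = 4). rsRNAs took 92.8%, 85%, 86.7% and 89.6% of the counts in sperm and 13.4%, 13.1% and 7.01% in fluid, a 7.92-fold difference of the means in the other direction. Because a read counts on every equally good entry, shares were also taken from the most counted entry alone of each rRNA type and of each anticodon and fragment type. rsRNAs then held 72.4% ± 6.57 in sperm and 5.34% ± 1.35 in fluid and tRFs 3.61% ± 1.59 and 80.4% ± 6.2. All entries of the other classes were kept, so snRNA copies that share reads were still counted more than once. Of the counts left, snRNAs held 17.6% ± 4.36 and 8.55% ± 3.27 and snoRNAs 2.13% ± 0.585 and 0.121% ± 0.0314. Of 30 shares compared, 26 (86.7%) did not overlap between the groups. With 4 libraries against 3, the 2-sided exact permutation test cannot go below p = 0.0571 (the smaller tail doubled), which each of these 26 shares reached (adjusted p = 0.0659), so no share could pass 0.05 in this test.

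**Figure D1:**
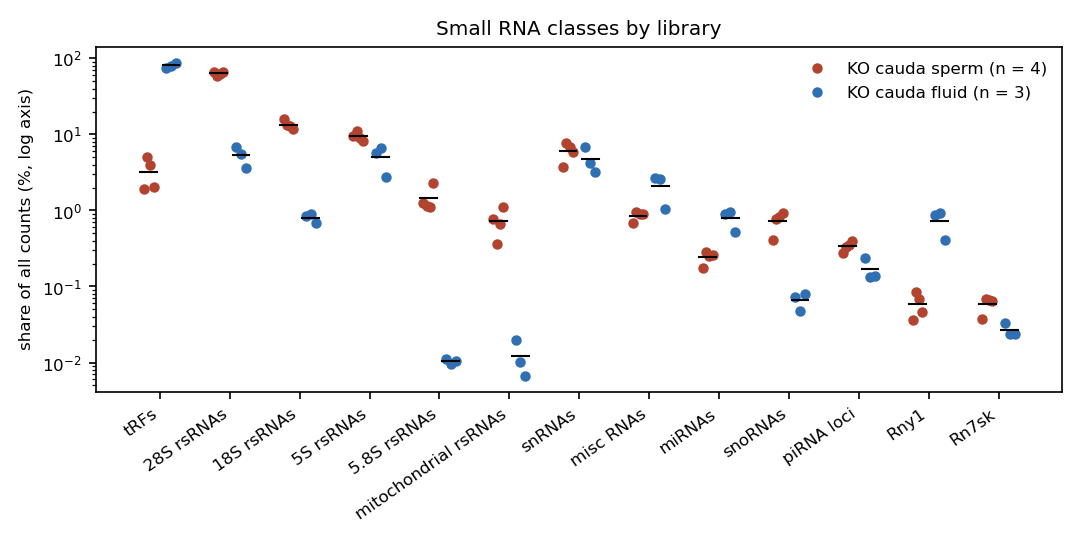
Share of all counts (%, log axis) of small RNA classes and single RNAs in each library of KO cauda sperm (red, n = 4) and KO cauda fluid (blue, n = 3), with the group mean as a black line. tRFs lay between 75.8% and 87.9% in fluid and between 1.91% and 5.04% in sperm, and only snRNAs overlapped among the classes.

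Within the rsRNAs the mix of types differed as well. 28S fragments held 71.7% ± 1.99 of sperm rsRNA counts and 48.1% ± 4.74 of fluid rsRNA counts, and 18S fragments 15.1% ± 1.68 and 7.57% ± 1.87. Fragments of 5S rRNA, a small rRNA with a transcript of its own, held more in fluid, with 10.2%, 12.9%, 10.5% and 9.16% of rsRNA counts in sperm and 42.9%, 50.4% and 38.9% in fluid. 5S fragments ranked second in fluid by mean, behind 28S fragments, but exceeded them in fluid library 2 (50.4% against 42.7%). Fragments of 5.8S rRNA held 1.45% ± 0.555 of all sperm counts against 0.0104% ± 0.000783 of fluid counts, a 139-fold difference. In sums over each rRNA type, tested in edgeR (quasi-likelihood fit on TMM-scaled counts, p-values adjusted after Benjamini and Hochberg), 4 of 5 types were higher in sperm, namely 5.8S (log2 fold change 6.51, SE 0.75, adjusted p = 2.47e-06), mitochondrial (5.34), 18S (3.48) and 28S (2.98). The sum of 5S fragments was not called (0.28, SE 0.52, adjusted p = 0.645).

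Mitochondrial RNA was mostly found in sperm. Mitochondrial rsRNAs made up 0.782%, 0.364%, 0.672% and 1.10% of sperm counts and 0.0197%, 0.0103% and 0.00663% of fluid counts. Mitochondrial tRNAs, also products of the genome that sperm midpiece mitochondria keep, made up 0.00989% ± 0.00277 of sperm counts and 0.000152% ± 0.000129 of fluid counts. Of 7 mitochondrial tRNAs tested, 6 were higher in sperm. Reads of nearly whole nuclear tRNAs were rare in both, with 0.0109% ± 0.0101 of fluid counts and at most 0.0000966% in any sperm library.

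The other classes were minor by share. snRNAs held 3.77%, 7.62%, 6.91% and 5.86% of sperm counts and 6.91%, 4.17% and 3.22% of fluid counts, so the groups overlapped (exact permutation p = 0.4). snoRNAs held 0.413% to 0.921% in sperm and 0.0482% to 0.0807% in fluid, a 10.9-fold difference of the means. piRNA loci differed less, with 0.338% ± 0.0497 in sperm and 0.170% ± 0.0607 in fluid. The miRNA class held 0.174%, 0.280%, 0.254% and 0.257% in sperm and 0.908%, 0.952% and 0.525% in fluid, and its direction depended on what it was measured against. Of the counts outside rsRNAs, miRNAs held 2.16% in sperm and 0.903% in fluid. tRFs kept their direction there, with 27.4% in sperm and 90.9% in fluid.

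Across single RNAs, 2235 were abundant enough to test in the edgeR fit to the 14 sperm and fluid libraries of both genotypes. An RNA was called at an adjusted p below 0.05 and an absolute log2 fold change above 1. In KO mice 752 RNAs (33.6%) were called higher in sperm and 714 (31.9%) higher in fluid. When tRFs were summed by anticodon and fragment type and rsRNAs by rRNA type, 415 of 1489 items (27.9%) were higher in sperm and 424 (28.5%) in fluid. The median log2 fold change over all RNAs was 0.60. It moved to 0.13 with DESeq2 size factors, to 0.83 with library size alone and to -0.40 when TMM factors were set on the RNAs outside the tRF, tRNA and rsRNA classes (called class-restricted scaling below), and with that last scaling 482 RNAs were higher in sperm and 888 in fluid.

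Classes fell on either side of that median. Of 179 tRF_5 (fragments at the 5′ end of a tRNA), 171 were higher in fluid and 2 in sperm, with a median log2 fold change of -5.40. Of 180 tRF_3 (fragments at the 3′ end), 154 were higher in fluid and 5 in sperm (median -5.05). The tRF_other, which match neither end of the tRNA, differed less, with 95 of 196 higher in fluid and 16 in sperm (median -1.29). At the other extreme, 178 of 191 snoRNAs were higher in sperm and 0 in fluid (median 4.57), and 226 of 333 rsRNA entries were higher in sperm and 6 in fluid (median 3.07). Reads counted on tRNA gene loci rather than on mature tRNAs (90 loci) followed the tRFs, with 79 loci higher in fluid and 0 in sperm.

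**Figure D2:**
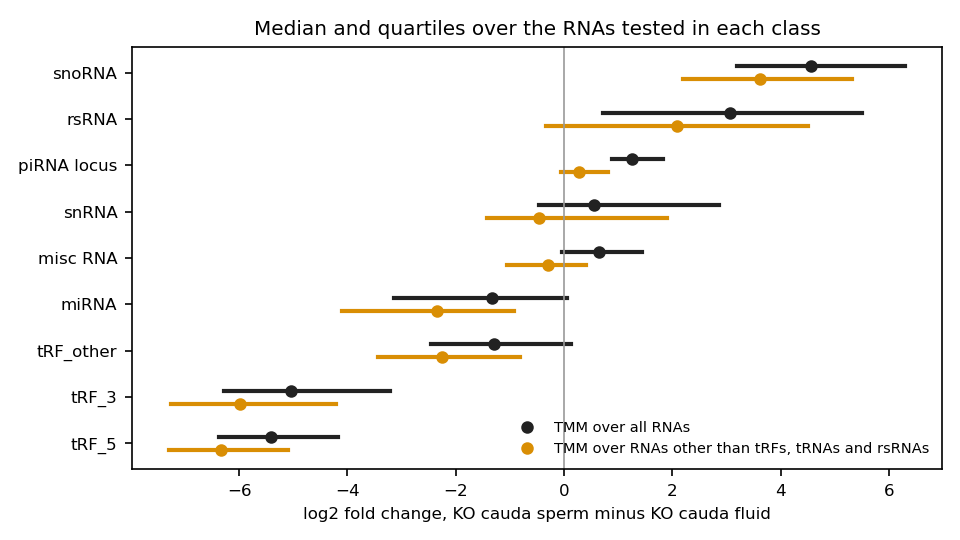
Median (point) and quartiles (line) of the log2 fold change between KO cauda sperm and KO cauda fluid over the tested RNAs of each class, under 2 scalings. tRF_5 and tRF_3 had medians of -5.40 and -5.05 and snoRNAs of 4.57 in the fit with TMM over all RNAs (black), and the medians of snRNAs and misc RNAs changed sign under the other scaling (orange).

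For classes near the centre, the number of calls or the direction depended on the scaling. piRNA loci had 190 of 423 entries higher in sperm and 3 in fluid (median 1.26), but 47 and 14 under class-restricted scaling. snRNAs had 79 entries (39.3%) higher in sperm and 13 (6.47%) in fluid (median 0.55), and under that scaling 57 and 73 (median -0.45). misc RNAs had 18 of 109 higher in sperm and 12 in fluid, with medians of 0.65 and -0.30 under the 2 scalings. The medians of piRNA loci, tRFs, miRNAs, rsRNAs and snoRNAs kept their sign under all 4 scalings.

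The mix of fragment types differed inside the tRFs. tRF_other made up 53.7%, 53.3%, 52.2% and 52.3% of tRF counts in the sperm libraries and 7.34%, 4.87% and 3.30% in the fluid libraries. It was steady in sperm (52.9% ± 0.720), and it was 10.2-fold lower in fluid (5.17% ± 2.03). tRF_5 held 12.7%, 22.9%, 21.8% and 17.8% of tRFs in sperm and 50.4%, 46.5% and 46.4% in fluid. tRF_3 held 33.6%, 23.8%, 26% and 29.8% in sperm and 42.2%, 48.6% and 50.3% in fluid. In fluid, then, nearly all tRF counts came from fragments with a tRNA end, in like parts from both ends, while sperm tRFs were mostly internal pieces.

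The higher tRF_other share in sperm was then read for each anticodon. Of 47 anticodons with at least 100 tRF counts in every library, 44 (93.6%) had a higher tRF_other share in each sperm library than in any fluid library. The 3 others overlapped. For Sup-TCA, a predicted suppressor tRNA, nearly all counts in both groups were tRF_other, and for Asn-GTT and Ile-AAT the sperm and fluid ranges crossed. The median tRF_other share was 47.4% in sperm and 3.38% in fluid. The tRF_3 share was higher in every fluid library for 29 anticodons (61.7%), and the tRF_5 share for 24 (51.1%), while for 8 anticodons the tRF_5 share was higher in every sperm library.

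**Figure D3:**
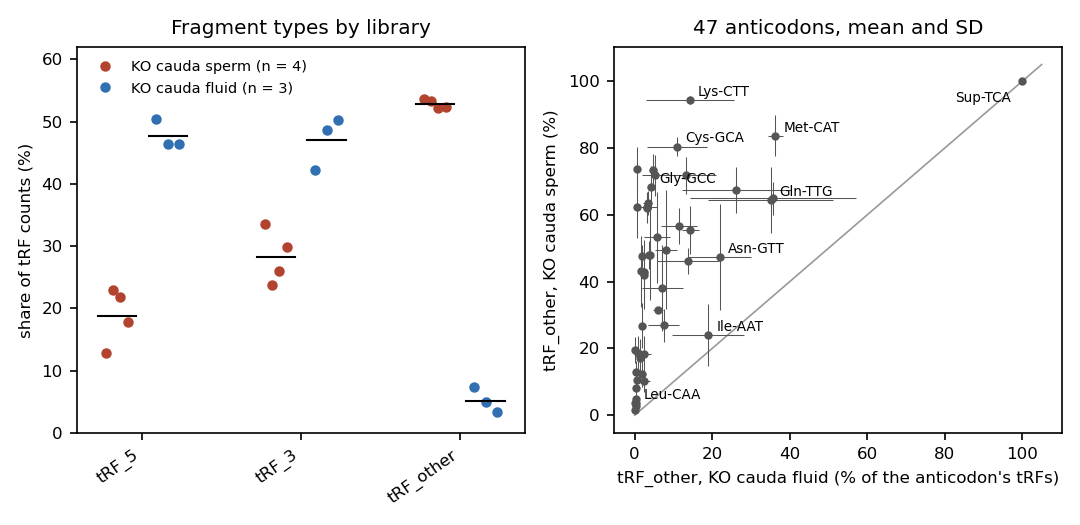
Left, share of tRF counts (%) by fragment type in each library of KO cauda sperm (red, n = 4) and KO cauda fluid (blue, n = 3), with group means as lines. Right, for each of 47 anticodons the tRF_other share of its own tRFs (%) in fluid and in sperm, as means with SD bars and a line of equality, and nearly all anticodons lie above that line.

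The fragments of tRNA Gly-GCC, the tRNA best known for its 5′ fragments in sperm, were of different types in the groups. Its tRFs were 74.5%, 61.4%, 64.1% and 72.9% tRF_other in sperm and 5.11%, 4.65% and 3.13% in fluid, and tRF_5 held 27.4% ± 7.8 of them in sperm and 89.6% ± 2.7 in fluid. Cys-GCA was 67.0% ± 9.5 tRF_5 in fluid and 80.4% ± 2.8 tRF_other in sperm. The elongator of lysine Lys-CTT was 94.3% ± 1.2 tRF_other in sperm and 14.2% ± 11 in fluid. The initiator tRNA iMet-CAT, named after its values were seen, was 93.1% ± 2.4 tRF_5 in fluid and 2.24% ± 1.3 in sperm, and it was the 1 anticodon whose tRF_3 share was higher in every sperm library (25.9% ± 6.4 against 1.76% ± 0.75). Leu-CAA kept one type, with tRF_3 holding 95.5% ± 1.6 of its tRFs in sperm and 99.6% ± 0.047 in fluid.

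Ranks were then compared within each fragment type, by share of the type's counts and without correction for length. In tRF_5, Gly-GCC led both groups, with 25.4%, 24.2%, 25.4% and 25% of tRF_5 counts in sperm and 42.6%, 35.1% and 42.1% in fluid. Val-AAC (13.4% ± 1.8 in sperm, 6.48% ± 1.1 in fluid) and Val-CAC (12.8% ± 2.2 and 5.50% ± 1.1) ranked 2nd and 3rd in sperm and 4th and 5th in fluid, where Glu-CTC and Gly-CCC ranked above them. The shares of Glu-CTC (9.69% and 10.3%) and Gly-CCC (5.87% and 8.25%) overlapped between the groups. Over 49 anticodons, Spearman's rho between a sperm and a fluid library was 0.70 to 0.87 for tRF_5, and 8 of the 10 most counted anticodons were shared.

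In tRF_3, Leu-CAA led sperm (10.4%, 19.3%, 19.1% and 14.6%) and was second in fluid (16.5%, 19.8% and 19.0%), with overlapping shares. His-GTG led fluid with 15.6%, 28.7% and 11.7% of tRF_3 counts and was 5th in sperm with 4.66% to 6.09%. Cys-GCA ranked higher in sperm, at 3rd (7.97% ± 2.5) against 22nd in fluid (1.09% ± 1.1). Trp-CCA, second in sperm (8.52% ± 4.8), overlapped with fluid (6.04% ± 0.89), and Leu-CAG ranked 8th in sperm (4.30%) and 3rd in fluid (6.32%).

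Among tRF_other, Cys-GCA and Gly-GCC led sperm, and Gly-GCC and Gln-CTG led fluid. Cys-GCA held 17.9%, 28.7%, 27.1% and 22.7% of the type in sperm and 5.34%, 2.70% and 3.22% in fluid, where it ranked 7th. Gln-CTG held 3.11% ± 0.60 in sperm (rank 8) and 16.1% ± 3.0 in fluid (rank 2), and Asp-GTC 4.25% ± 1.0 (rank 6) and 10.3% ± 3.3 (rank 3). Gly-GCC did not differ beyond its spread, with 22.5% ± 3.9 and 18.3% ± 2.7. Lys-CTT was 3rd in sperm with 6.4% ± 1.1 and 11th in fluid with 2.45% ± 0.86.

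**Figure D4:**
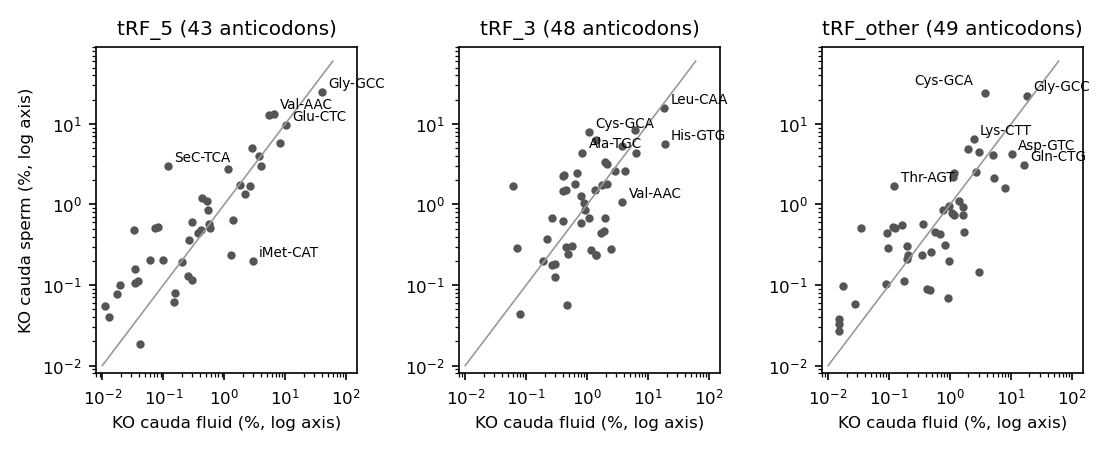
Mean share of each anticodon in the counts of its fragment type (%, log axes) in KO cauda fluid (x) and KO cauda sperm (y), for tRF_5, tRF_3 and tRF_other, with a line of equality. Anticodons at or under 0.01% in either group are not drawn. Gly-GCC led both groups in tRF_5, His-GTG led fluid in tRF_3 and Cys-GCA led sperm in tRF_other.

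By anticodon sum and over all counts, 48 of 49 tRF_5 and 47 of 49 tRF_3 sums were higher in fluid and 0 in sperm. Gly-GCC tRF_5 was lower in sperm by a log2 fold change of -7.25 (SE 0.87, edgeR adjusted p = 3.55e-06), His-GTG tRF_3 by -7.84 (SE 0.85) and Asn-GTT tRF_3 by -8.16 (SE 0.73). The widest gap among the sums named here was Ser-GGA tRF_other, at -9.13 (SE 0.86). Met-CAT tRF_3 (-7.31), Pro-AGG tRF_5 (-7.91) and Leu-TAG tRF_3 (-5.31) were also among the 5 smallest p-values. Some of these sums rest on few counts. Ser-GGA did not reach 100 tRF counts in every library. The lowest library held 129 tRF counts of Asn-GTT and 140 of Pro-AGG over all fragment types. Only tRF_other held sums that were higher in sperm, 2 of 51 against 31 of 51 higher in fluid, and they were Thr-AGT (2.01, SE 0.56, adjusted p = 0.00542) and Thr-CGT (2.0, SE 0.57, adjusted p = 0.00634). Thr-AGT lost its call under class-restricted scaling (1.33). Cys-GCA tRF_other was not called (0.77, SE 0.61, adjusted p = 0.288). Gly-GCC tRF_other was called higher in fluid (-1.65, SE 0.59, adjusted p = 0.0239), a call that was lost with library-size scaling (-1.01), without the filter on low counts (-1.29) and when any of the KO libraries other than fluid library 3 was left out singly (-1.69 to -1.45). Cys-GCA tRF_3 was called higher in fluid (-3.22, adjusted p = 0.00303), but not without fluid library 3 (-1.89, adjusted p = 0.0565).

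Scaling the tRFs by themselves removed the class difference and left their relative order. Of 148 anticodon sums, 53 (35.8%) were then higher in sperm and 53 (35.8%) in fluid. The calls split by fragment type, with 43 of 51 tRF_other sums higher in sperm and 2 in fluid, 23 of 48 tRF_5 sums higher in fluid and 4 in sperm, and 28 of 49 tRF_3 sums higher in fluid and 6 in sperm. On this relative scale Cys-GCA tRF_other (5.53), Lys-CTT tRF_other (4.23) and Gly-GCC tRF_other (3.23) were higher in sperm, as was Cys-GCA tRF_3 (1.44, adjusted p = 0.0318), while Gly-GCC tRF_5 (-2.52) and His-GTG tRF_3 (-2.96) stayed higher in fluid.

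Among the miRNA entries, the most counted in both groups were not miRNAs in any usual sense. Gm47299 and Gm47295, which lie in Rn7s2 and Rn7s1, genes for the 7SL RNA of the signal recognition particle, and had nearly the same counts, each held 16.6% ± 2.6 of miRNA counts in sperm and 19.4% ± 12 in fluid. With Gm47287, Gm47305, Gm47304 and Gm24105-202, the 6 entries inside Rn7s1, Rn7s2, Rn7s6 and Gm24105 held 60.03%, 41.4%, 43.8% and 52.1% of miRNA counts in sperm and 55.6%, 54.1% and 16.2% in fluid. The third fluid library thus stood apart from the other 2 in this share. In all, 26 hairpin entries overlapped another small RNA gene. The entries without such an overlap made up 0.0611%, 0.144%, 0.122% and 0.105% of all counts in sperm and 0.402%, 0.436% and 0.440% in fluid, so that the miRNA share so counted was 3.95-fold higher in fluid and varied little between fluid libraries.

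The 3 miRNA entries with the smallest p-values on the sperm side also lay inside snoRNA genes. Mir5121 (7.67, SE 1.10, adjusted p = 9.44e-06) lies in Snord33, Gm49346 (7.12, SE 0.79) in Snora81 and Gm47309 (7.08, SE 0.81) in the snoRNA gene Gm22519. Snora81, which belongs to the snoRNAs that guide pseudouridylation, was itself higher in sperm by 6.24 (SE 0.68). A read from either transcript counts for both where it matches both equally well.

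Shares of the remaining 354 miRNA entries listed in both tables were therefore set against the counts outside other genes, a choice made after the values were seen. They still included Snord43, listed as a miRNA but named as a snoRNA, with 1.25% of these counts in sperm (rank 22) and 0.00871% in fluid (rank 280). Mir21a led sperm (4.74%, 3.38%, 3.61% and 4.20%) and was 3rd in fluid (3.83%, 4.70% and 5.87%), with overlapping shares. Mir125b-1 and Mir125b-2, which give the same 5p mature sequence, led fluid with 5.87% ± 1.0 each and held 1.84% ± 0.21 and 1.87% ± 0.19 in sperm. Mir191, second in sperm with 2.88% ± 0.38, held 0.894% ± 0.40 in fluid and ranked 28th there. The other leaders, all listed after their values were seen, were Mir16-1, Mir16-2 and Mir148a in sperm, and Mir143, Mir199a-1 and Mir199a-2 in fluid. Of the 10 most counted entries, 2 were shared. These 10 held 26.6% of the counts in sperm and 41.2% in fluid, so fluid miRNA counts were more concentrated.

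**Figure D5:**
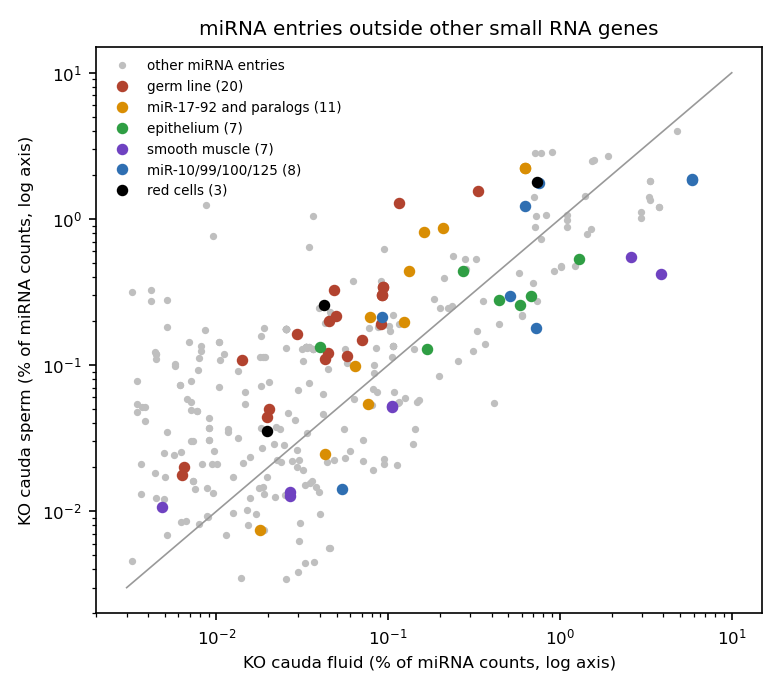
Mean share of miRNA counts outside other small RNA genes (%, log axes) in KO cauda fluid (x) and KO cauda sperm (y) for each miRNA entry above 0.003% in both, with a line of equality and lists of marker and family miRNAs in colour. Smooth muscle, epithelial and miR-10 family members lie mostly below the line and germ line members mostly above it.

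On the scale of all counts, miRNAs were mostly higher in fluid. Of 273 tested, 137 were called higher in fluid and 28 in sperm (median log2 fold change -1.33). The 3 with the smallest p-values on the fluid side were Mir99a (-4.28, SE 0.52, adjusted p = 1.52e-06), Mir214 (-5.46, SE 0.66, adjusted p = 1.61e-06) and Mir143 (-5.61, SE 0.70, adjusted p = 2.11e-06). Mir99a, for example, stood at 1.23, 2.53, 2.39 and 0.793 TMM-scaled CPM in sperm and at 27.1, 31.9 and 47.1 in fluid. Scaled within the class, 325 miRNA entries gave 104 (32%) higher in sperm and 94 (28.9%) higher in fluid, a scale that sets the class near 0 by construction (median 0.24).

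Some lists of miRNAs known from particular cells held different shares of the miRNA counts in sperm and fluid. Germ line miRNAs, that is miR-34b/c, miR-449 and X-linked testis miRNAs, held 7.36%, 4.58%, 4.96% and 6.59% of the miRNA counts in sperm and 2.36%, 0.612% and 1.11% in fluid. Of 18 tested on all counts, 1 was called higher in sperm, Mir34c (1.23, SE 0.51, adjusted p = 0.0426), and 0 in fluid (median -0.41). That count depended on the scaling, and class-restricted scaling called 10 of the 18 higher in fluid and 0 in sperm (median -1.37), among them Mir881 (-2.16), Mir741 (-1.99) and Mir34b (-1.08). DESeq2 size factors called 3 higher in fluid, and leaving out fluid library 2 called 2. Within the miRNA class, 5 of 19 were higher in sperm and 0 in fluid (median 0.81), with Mir34c at 2.46 and Mir34b at 1.20. On that scale 32% of all miRNA entries were higher in sperm and 28.9% in fluid. The 5 of 19 higher in sperm were thus not above the share of the whole class. Mir34c stood at 13, 10.02, 10.9 and 14 TMM-scaled CPM in sperm and 7.22, 2.53 and 5.45 in fluid, so that the groups did not overlap. Its call was lost under class-restricted scaling (0.28), with library size or DESeq2 size factors, and without any single KO library (adjusted p between 0.0523 and 0.204).

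Among the somatic lists, smooth muscle, epithelial and endothelial miRNAs leaned to fluid. Of all 273 miRNAs tested, 137 (50.2%) were called higher in fluid on all counts, and within the class 28.9% were. Smooth muscle miRNAs (miR-143, miR-145a, miR-1a and miR-133a) held 0.920%, 1.52%, 1.27% and 0.657% of miRNA counts in sperm and 5.03%, 5.04% and 10.02% in fluid, and 6 of 6 tested were called higher in fluid on all counts and within the class (median -3.61 and -2.29). Epithelial miRNAs (the miR-200 family, miR-203 and miR-205) held 2.03% ± 0.28 in sperm and 3.47% ± 0.89 in fluid, with 6 of 7 called higher in fluid on all counts and 5 of 7 within the class. Mir200a, which keeps epithelial cells from losing their identity, was at -3.72 (SE 0.61, adjusted p = 3.65e-05), and Mir203 was not called (-0.72) except under class-restricted scaling (-1.71). The endothelial Mir126a was at -3.80 (SE 0.75). Of 4 white cell miRNAs, 3 were called higher in fluid, among them the myeloid Mir223 (-3.67, SE 0.54), though the summed share of the list overlapped between the groups. Of the 7 epithelial and 7 smooth muscle entries, 0 were at 0 counts in any of the 7 libraries. The germ line list as a whole was also counted in every fluid library. Of its 20 entries, 1 was at 0 counts in at least 1 fluid library and 2 in at least 1 sperm library. The part that RNA of these cells had in the values of either compartment was not tested.

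The red cell miRNAs Mir451a and Mir144 varied more between sperm libraries than between sperm and fluid. They and the other listed member held 0.177%, 4.35%, 2.98% and 0.736% of miRNA counts in sperm and 0.50%, 1.5% and 0.383% in fluid, with KO sperm libraries 2 and 3 high, and neither of the 2 tested was called on all counts. Within the class 1 of 3, Mir144, was higher in sperm (1.75, adjusted p = 0.0075), and with a replicate block Mir451a was higher in fluid (-1.22, adjusted p = 0.0498). Libraries 2 and 3 also had the highest tRF shares and the highest Rny1 levels of the 4 sperm libraries. The part of blood RNA in those values was not tested.

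Families that most cells express split in the same manner. All 12 let-7 members were called higher in fluid on all counts (median -2.52) and 9 of 12 within the class. The call of Mirlet7f-1 was lost without sperm library 1 (-1.51), without fluid library 3 (-1.67) and with library size alone (-1.41). Their summed share was 9.08% ± 0.86 in sperm and 14.5% ± 4.5 in fluid. Of the 8 members of the miR-10 family (Mir10a, Mir10b, Mir99a, Mir99b, Mir100, Mir125a and both Mir125b genes), 6 were higher in fluid (median over the 8 of -3.52), the exceptions being Mir10a (-1.05, adjusted p = 0.0882) and Mir99b (-1.18, adjusted p = 0.0828), and the family held 7.29% ± 0.32 of miRNA counts in sperm and 14.5% ± 2.1 in fluid. All 8 were called higher in fluid under class-restricted scaling, with DESeq2 size factors and in the 7 KO libraries alone, but 5 with library size and without the filter. Mir10b also lost its call without sperm library 1 (-1.16), sperm library 4 (-1.18) or fluid library 3 (-1.22). All 4 miR-29 members were higher in fluid by both measures (median -3.44 and -2.12), as was Mir204 (-3.47 and -2.12). All 6 miR-30 members were higher in fluid on all counts (median -1.68), of which Mir30a (-1.30), Mir30c-1 (-1.35) and Mir30e (-1.09) were not called without fluid library 3. With library size alone 2 of the 6 were called. Within the class only Mir30d was called, and the family held more of the miRNA counts in sperm (6.93% ± 0.36) than in fluid (4.79% ± 0.46). The miR-17-92 cluster and its paralogs, known for promoting proliferation, held 7.53%, 6.09%, 6.66% and 8.09% in sperm and 1.93%, 1.33% and 3.20% in fluid, with 4 of 10 members higher in fluid on all counts (median -0.86), and within the class 1 higher in sperm and 2 in fluid. Class-restricted scaling called 9 of the 10 higher in fluid, among them Mir17 (-2.03) and Mir93 (-1.69), and DESeq2 size factors 6. Of the 4, Mir18 (-0.75) and Mir20a (-0.97) were not called without fluid library 3. Mir191 and Mir425 together held 3.02% ± 0.36 in sperm and 1.01% ± 0.41 in fluid, and 1 of the 2, Mir425, was called higher in fluid on all counts (-1.59).

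Y RNAs were the other RNAs that marked fluid. Rny1 made up 0.0360%, 0.0838%, 0.0688% and 0.0456% of sperm counts and 0.871%, 0.933% and 0.408% of fluid counts, and it held 35.8% ± 3.0 of all misc RNA counts in fluid against 6.71% ± 1.8 in sperm. Its log2 fold change was -3.92 (SE 0.46, adjusted p = 1.22e-06). Rny3 was at -3.87 (SE 0.68, adjusted p = 7.11e-05), with a wider spread in fluid (0.242%, 0.366% and 0.0421% of counts). The 7SL genes Rn7s1 and Rn7s2 were higher in fluid by less (-1.71, SE 0.47, adjusted p = 0.00365), and Rn7s6 was not called (0.17).

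4 other noncoding RNAs were tested singly. Rn7sk, which holds the elongation factor P-TEFb inactive, was not called (0.87, SE 0.49, adjusted p = 0.122), although its share of all counts did not overlap (0.0373% to 0.0686% in sperm, 0.0236% to 0.0329% in fluid). Vaultrc5, an RNA of the vault particle, was called higher in sperm (1.48, SE 0.45, adjusted p = 0.00835), a call lost under class-restricted scaling (0.47). Rpph1 (0.58) and Rmrp (0.59), the RNAs of RNase P and RNase MRP, were not called, and their shares of all counts overlapped. Rmrp was called higher in sperm without fluid library 3 (1.36).

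Most snoRNAs were higher in sperm. Snord104 led sperm with 3.90%, 2.76%, 3.13% and 4.47% of snoRNA counts, and held 0.924%, 0.765% and 0.455% in fluid, where it ranked 24th. The U3 gene Rnu3b1, whose RNA is needed to cut pre-rRNA, led fluid with 6.22% ± 0.37 and held 2.72% ± 0.60 in sperm. On all counts it was higher in sperm (1.75, SE 0.54, adjusted p = 0.0085), but not under class-restricted scaling (0.75), and scaled within the class it was higher in fluid (-2.48, SE 0.37). Snora81 and the snoRNA Gm23017 (6.36, SE 0.70) had the smallest p-values, and Snora81 stood at 39.5, 63.0, 65.6 and 77 TMM-scaled CPM in sperm and 0.635, 1.13 and 0.654 in fluid. Within the class, 51 of 156 snoRNAs (32.7%) were higher in sperm and 33 (21.2%) in fluid. The order of snoRNAs was alike among sperm libraries (rho 0.97 to 0.99 over 198) and less so among fluid libraries (0.66 to 0.74), where the counts were low, and 0.44 to 0.61 between the groups.

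snRNAs, the RNAs of the spliceosome, kept much of their order, and 5 of the 10 most counted entries were shared between sperm and fluid. The U1 gene Rnu1a1, whose RNA pairs with the 5′ splice site, and its copy Gm22317 led fluid with 4.05% ± 0.31 each and held 2.66% ± 0.075 in sperm. The U2 entries Gm23849 and Gm24950 led sperm with 3.03% ± 0.41 each and held 2.23% ± 0.065 in fluid. None of these 4 was called on all counts (-0.51 and 0.55), although the U1 pair was called higher in fluid under class-restricted scaling (-1.49), and copies with near-identical sequence share reads. Gm24038 (6.14, SE 0.69) and Gm23470 (3.91, SE 0.47) had the smallest p-values on the sperm side. Gm23214 (-4.79, SE 0.65) and Gm22985 (-4.44, SE 0.61) had the smallest on the fluid side, with 1.93, 4.71, 4.46 and 2.91 TMM-scaled CPM of Gm23214 in sperm and 67.4, 131 and 94.4 in fluid. Scaled within the class, 69 of 188 snRNAs (36.7%) were higher in sperm and 18 (9.57%) in fluid.

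piRNA loci, genomic clusters from which piRNAs of the male germ line are made, gave the fewest calls of the 5 classes scaled within themselves. Scaled within the class, 12 of 357 (3.36%) were higher in sperm and 14 (3.92%) in fluid, and rho between sperm and fluid was 0.77 to 0.89 over 442 loci. pi-Lpp.1 led sperm with 2.49%, 2.52%, 2.80% and 3.04% of the class and held 1.06%, 1.38% and 1.08% in fluid. On all counts it was higher in sperm (2.03), a call lost under class-restricted scaling (1.0). The entries pi-Ctdsp2.1, pi-Ctdsp2.3 and pi-Ctdsp2.2, which share reads, were the exception. Overlap of piRNA loci with other small RNA genes, miRNA genes among them, was not tested. The kind of RNA behind these counts is therefore not known. pi-Ctdsp2.1 held 5.64%, 10.3% and 12.5% of piRNA-locus counts in fluid, where it ranked first, and 0.574% to 1.25% in sperm, where it ranked 10th, and it was higher in fluid on all counts (-2.70, SE 0.46, adjusted p = 5.42e-05). pi-Mrs2.4 (3.06, SE 0.49) and pi-Mrs2.3 (3.01, SE 0.48) had the smallest p-values on the sperm side.

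Whether the gap between sperm and fluid depended on the deletion was tested as the difference of the 2 log2 fold changes in the same fit. The edgeR test called 0 of 2235 RNAs (0%) at the thresholds above, with a smallest adjusted p of 0.187 and 310 RNAs at an unadjusted p below 0.05. Of these 310, 254 had a lower and 56 a higher log2 fold change in KO. The median difference over all RNAs was -0.39, and -0.12 under class-restricted scaling. WT libraries had like shares of tRFs (5.47% ± 3.27 of sperm counts and 82.7% ± 4.64 of fluid counts) and of tRF_other (52.5% ± 4.5 and 4.08% ± 2.0 of tRFs). Other shares were less alike. Rny3 made up 0.217% ± 0.164 of KO fluid counts and 0.0347% ± 0.0338 of WT fluid counts, and Rny1 0.737% ± 0.287 and 0.404% ± 0.0534. piRNA loci held 0.644% ± 0.435 of WT sperm counts and 0.109% ± 0.0427 of WT fluid counts. Shares were not tested between genotypes. DESeq2 with its default settings called 41 RNAs. The 28S, 18S and 5S sums differed between genotypes by 0.35 (SE 0.67), 0.65 (SE 0.68) and 1.28 (SE 0.73) and were not called. With standard errors of this size, a difference of 1 log2 unit between genotypes was not detectable at this number of libraries for these sums.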

How the data were processed

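Small RNA of cauda sperm and cauda fluid was read by OTTR-seq, and the 14 libraries of WT and KO mice on the FVB background were grouped by their labels. The deposited values are raw read counts per RNA from the authors' modified version of tRAX, a tRNA read counter (cutadapt and UMI-tools, per the submitters' processing notes) by mapping to mm10, mature tRNAs, rRNA sequences, piRNA loci and Ensembl genes. A read was counted on every equally good feature, so near-identical entries share reads. Fluid and sperm were counted in separate tables, which were joined here by RNA name.

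Counts of the 14 libraries were fitted in edgeR 4.0.16 (R 4.3.3; TMM, filterByExpr with at least 10 counts, quasi-likelihood test, Benjamini-Hochberg adjustment), with 1 term for each of the 4 groups. CPM values are scaled by the TMM factors, and the log2 CPM values behind the correlations include a prior count of 2. Fold changes came from the quasi-likelihood fit, without that prior count. The fit was tested on simulated data. Shares were compared over libraries with 2-sided exact permutation tests (scipy 1.17.1). Of 1967 Ensembl names, 1961 matched the GENCODE M21 annotation, which gave coordinates and sequences in mm10. Alternatives were DESeq2 1.42.0, other size factors, no filter, RNAs of either table, the 7 KO libraries alone, a replicate block, each KO library left out, and shares from the most counted entry of each rRNA type, anticodon and fragment type. Fits within 1 class, the fit without the block on the same libraries and the miRNA share without overlapping hairpins were added after seeing the data.

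The RNAs named are the 3 leading anticodons of each fragment type and the 2 leading snRNAs, snoRNAs and piRNA loci of each group, the 5 miRNA entries most counted in each group, every rRNA type, the RNAs with the smallest p-values among those with groups that do not overlap (3 miRNAs, 2 snoRNAs, 2 snRNAs, 2 piRNA loci and 5 anticodon sums in each direction), the listed miRNAs and a few Y, 7SL, 7SK, vault, RNase P and RNase MRP RNAs. The comparison, the members and the lists were chosen with earlier results of these data known. Each library pools the RNA of 3 mice, so p-values measure the spread between pools, and the labels do not say whether sperm and fluid pools came from the same animals. Counts are not corrected for RNA length or for the amount of RNA per cell or per volume.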

Additional observations from a re-analysis of the deposited data

Results flagged for a closer look

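Among the 4 KO sperm libraries, 27 of 172 measures had a highest or lowest library that stood apart from the other 3 by a gap above the 95% critical value of Dixon's test, where chance gives about 1 in 20. Library 4, the one with the fewest counts (3618739), was the high one in most of them. Its share of 5.8S rsRNAs was 2.277% of all counts (the others 1.105% to 1.264%) and 2.541% of rsRNA counts (1.274% to 1.363%). Its 7SL hairpins Gm47299 and Gm47295 stood at 498.5 and 498 TMM-scaled CPM against 318.7 to 329.7 in the others. It was also high for Mir21a (41.79), Mir214 (1.058), Mir465c-1 and Mir465c-2 (4.496 each), Mir871 (2.645), Mir429 (2.38), Mir10a (23.27), Mir99b (3.967), Mir30a (8.463) and Mir29c (3.967), all in TMM-scaled CPM.

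Library 1 was low for Rn7sk (0.03728% of all counts, the others 0.06411% to 0.06862%) and for Gm47309 (12.8 TMM-scaled CPM), Mirlet7f-1 (6.767), Mirlet7f-2 (6.708), Mirlet7g (5.542) and Mir30c-1 (18.46). It was high for the hairpins Gm47287 (215) and Gm47305 (212.5), which stood at 54.8 to 68.23 in the others, and for Mir17 (2.567). Library 2 was low for Gm24105-202 (75.74) and Mir878 (0.8191), and library 3 was high for Mir470 (0.7823) and low for Mir146 (0.3978).

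The gap between sperm and fluid differed between KO and WT for 1 miRNA and 6 snRNAs when each class was scaled by itself, while the fit on all counts called 0 RNAs. For Mir451a, a miRNA of red cells, the log2 fold change was 0.27 in KO and -2.79 in WT, a difference of 3.062 (SE 0.78, edgeR adjusted p = 0.0453). Its shares of miRNA counts were 0.0533%, 1.90%, 1.25% and 0.258% in KO sperm and 0.198%, 0.648% and 0.283% in KO fluid, against 0.136% to 0.358% in WT sperm and 0.736% to 1.05% in WT fluid. KO sperm libraries 2 and 3 thus lay above every WT sperm library and library 1 below them.

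The 6 snRNAs were Gm22985 (-4.115), Gm25179 (-2.559), Gm22249 (-2.308), Gm23214 (-4.165), Gm26254 (-4.208) and Gm25176 (-3.874), each with an edgeR adjusted p of 0.0243 for the difference of KO minus WT. They are entries on 6 chromosomes that begin with the same 21 bases, shown here because such entries can share reads and are not independent observations. Their mean shares of snRNA counts were alike in KO fluid (0.201% to 0.207%). In KO sperm, Gm25179 (0.0849%) and Gm22249 (0.0661%) held more than the others (0.00631% to 0.00861%), so not all reads were shared.

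Shared start of the 6 snRNAs: agctttgcgcagtggcagtat

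Gm23214, for example, held 0.00395% to 0.00829% of snRNA counts in KO sperm and 0.112%, 0.284% and 0.206% in KO fluid, against 0.00508% to 0.143% in WT sperm and 0.0526% to 0.141% in WT fluid. WT sperm spread more widely than KO sperm.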

How the results depend on the processing

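Of the counts outside rsRNAs, the miRNA share changed direction (log2 ratio 1.2604). Calls between KO sperm and KO fluid numbered 603 higher in sperm and 764 in fluid with DESeq2 size factors, 760 and 640 with library size, 482 and 888 with class-restricted scaling, 609 and 770 in DESeq2, 773 and 831 of 2923 without the filter, 1020 and 701 of 2471 with RNAs of either table, and 820 and 670 of 2120 in the 7 KO libraries alone. The gap differed between genotypes for 41 RNAs in DESeq2 (4 with a higher and 37 with a lower log2 fold change in KO) and for 117 with a replicate block within genotype (10 and 107; 20 anticodon sums). Same-numbered sperm and fluid libraries deviated together weakly (r = 0.225, 0.056 and 0.101, of which 1 was under 0.1), so the numbers were not taken to pair them. The replicate block on libraries 1 to 3 gave 943 and 717 calls of 2330, against 848 and 716 without it. Scaled within their class, Cys-GCA tRF_3 (1.4361), Gly-GCC tRF_other (3.2266), Gln-CTG tRF_other (0.5289), Asp-GTC tRF_other (1.7217) and both Rnu3b1 entries (-2.4764) changed direction.

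Leaving out each KO library in turn gave 1302 to 1424 RNAs and 771 to 914 sums called, and 0 differences between genotypes. Log2 ratios of shares then ranged from -4.9368 to -4.4561 for tRFs, 2.7398 to 3.1352 for rsRNAs, -1.9471 to -1.5714 for miRNAs, 0.83949 to 1.3257 for piRNA loci, 0.1241 to 0.7078 for snRNAs, 3.1144 to 3.6937 for tRF_other, -1.4507 to -1.1949 for tRF_5 and -0.82615 to -0.65905 for tRF_3. For 142 named RNAs, 2254 of 2396 values under alternatives kept direction and call, 66 lost the call, 70 gained one and 6 changed direction. The causes were not tested.

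Tables with 3 or 4 libraries a group give wide standard errors. RNAs with few counts in a compartment, such as most snoRNAs in fluid, rest on little depth.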

Other observations

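Many RNAs were listed in the table of 1 compartment and not in the other, which joined comparisons leave out. Outside nuclear tRNAs, each table lists only RNAs that reach 5 counts in a library, and an RNA that is not listed has no value there. Depth differed, with 62128314 counts in the deepest KO sperm library and 11018838 in the deepest KO fluid library. The part that depth had in these lists was not tested. Both tables also hold WT libraries, and the fluid table those of caput and corpus. The sperm table alone listed 1232 of its 4323 RNAs. These included 398 snoRNAs (66.4% of the 599 snoRNAs listed for sperm) and 27 mitochondrial tRNAs (62.8% of 43). The snoRNA Gm26457-202, the most counted of them, stood at 12.6, 61.2, 64.2 and 58.03 CPM, so KO sperm library 1 lay below the other 3. The mitochondrial mt-tRNA-Lys-TTT stood at 19.4, 18.8, 26.01 and 33.2 CPM. The fluid table alone listed 87 of its 3178 RNAs, of which 43 were tRNA loci and 28 were miRNAs. The most counted of these miRNAs, Mir351, Mir496a and Mir708, stood at 0.769, 0.734 and 0.725 CPM on average. Some of the 87, such as the misc RNA Gm24885, were at 0 counts in all 3 KO cauda fluid libraries.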
